A study of Mus musculus with 6 samples.

Results

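The 14-3-3 proteins are a family of small adaptor proteins encoded in the mouse by 7 genes, Ywhab, Ywhae, Ywhag, Ywhah, Ywhaq, Ywhaz and Sfn. All 7 were found by gene name among the 20482 genes of the deposited counts table. The family was chosen by the values of one of them: Ywhah was lower in lenvatinib-resistant than in lenvatinib-sensitive tumours, so its difference between the groups is described here without a test. The other 6 were taken because they belong to the family.

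The samples were 6 tumours grown under the skin of the flank in male C57BL/6 mice that were 6 weeks old when H22, a mouse hepatocellular carcinoma line, was implanted, and the labels give the genotype as WT throughout. The 3 resistant tumours (H22-LR, here LR1 to LR3) were taken after 2 cycles of lenvatinib, a drug that blocks the receptors for VEGF and FGF and other receptor tyrosine kinases. The dose was 100 mg/kg per day, injected into the peritoneum 2 times a week. The 3 sensitive tumours (H22-NR, here NR1 to NR3) came from control mice, for which the protocol gives PBS with 0.1% DMSO but also names lenvatinib, and the treatment label reads untreated for all 6 tumours. Exposure to the drug and resistance to it cannot be told apart in this design. RNA came from whole tumour tissue, in which fewer cells of a type and less RNA per cell cannot be told apart.

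14-3-3 proteins form dimers, each monomer of which binds a phosphorylated serine or threonine in a client protein, and in this way they hold, hide or move their clients. Kinases such as AKT, AMPK and the LATS kinases write the docking sites, and phosphatases such as PP2A remove them. RAF kinases, the CDC25 phosphatases, BAD, FOXO factors and YAP are among the best known clients. The Ywha genes are active in most tissues, with high levels in brain, while Sfn, which encodes 14-3-3 sigma, is known from epithelial cells and as a target of p53.

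Total counts ran from 15995403 to 16635385 in the resistant and from 17106568 to 17545098 in the sensitive tumours. NR2 stood apart, with 3.28% of its counts in immunoglobulin genes, against at most 0.0425% in each other tumour. NR1 had 16.4% of its counts in mitochondrially encoded genes, against 5.60% to 9.71% in the other tumours. Among the liver genes Alb, the gene of albumin, stood at 112.1 to 121.3 CPM, counts scaled to library size, in the resistant and 167.2 to 198.0 CPM in the sensitive tumours, and Afp, the oncofetal alpha-fetoprotein, at 16.7 to 22.8 CPM in the resistant and 11.5 to 18.6 CPM in the sensitive tumours. Library sizes were scaled by the TMM method, and 3 counts correspond to 0.171 to 0.186 CPM.

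In their coding sequences the 7 genes were 61.9% to 78.6% identical to each other, and Ywhah and Ywhag, which encode 14-3-3 eta and gamma, formed the closest pair. Both lie on chromosome 5, far apart. Ywhah spans positions 33018816 to 33027966 on the plus strand and Ywhag 135908409 to 135934616 on the minus strand (GRCm38, GENCODE release M21, matched by identifier). Ywhab lies on chromosome 2 (163994960 to 164018588, plus strand), Ywhae on 11 (75732869 to 75765845, plus strand), Ywhaq on 12 (21390071 to 21417637, minus strand), Ywhaz on 15 (36770770 to 36796929, minus strand) and Sfn on 4 (133600556 to 133602168, minus strand). Their promoters, 250 bases before to 50 bases after the RefSeq start site on GRCm38.p6, are shown because these 2 members stood at opposite ends of the differences among the 6 abundant ones. That of Sfn is shown because it is the member with the lowest level.
Ywhah promoter, chr5:33018566-33018865, plus strand: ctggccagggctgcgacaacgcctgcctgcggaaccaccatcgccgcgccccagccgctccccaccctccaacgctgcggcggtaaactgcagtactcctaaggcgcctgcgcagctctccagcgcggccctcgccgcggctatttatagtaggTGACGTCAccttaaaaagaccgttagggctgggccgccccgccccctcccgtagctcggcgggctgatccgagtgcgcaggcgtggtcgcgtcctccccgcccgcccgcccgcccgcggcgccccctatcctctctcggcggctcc
Ywhag promoter, chr5:135934592-135934891, minus strand: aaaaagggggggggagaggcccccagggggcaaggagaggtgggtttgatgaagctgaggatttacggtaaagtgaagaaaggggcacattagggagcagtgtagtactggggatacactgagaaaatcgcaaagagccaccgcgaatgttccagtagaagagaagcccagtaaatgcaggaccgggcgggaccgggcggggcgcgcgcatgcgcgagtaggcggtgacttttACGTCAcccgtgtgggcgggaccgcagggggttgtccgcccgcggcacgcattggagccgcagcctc
Sfn promoter, chr4:133602119-133602418, minus strand: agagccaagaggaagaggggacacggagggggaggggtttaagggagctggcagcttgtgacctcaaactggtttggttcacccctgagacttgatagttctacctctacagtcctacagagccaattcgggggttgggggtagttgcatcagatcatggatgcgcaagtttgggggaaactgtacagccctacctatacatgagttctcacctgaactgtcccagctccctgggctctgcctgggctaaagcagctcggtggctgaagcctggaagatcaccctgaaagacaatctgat
Capitals mark the cAMP response element TGACGTCA or its shorter core TGACGT, searched on both strands, so that the core reads ACGTCA where it lies on the other strand. The palindrome stood 96 bases before the start of Ywhah, and a single core 17 bases before the start of Ywhag. The palindrome is in 1.79% and the core in 7.51% of the 32851 RefSeq promoter windows of this length, cores inside a palindrome included. The windows of Sfn, Ywhae and Ywhaq held neither, and no window was at hand for Ywhab and Ywhaz. The GC content was 71.7% for Ywhah, 61.3% for Ywhag and 54.0% for Sfn, with 38, 23 and 4 CpG dinucleotides, against medians of 52.7% and 7 over all windows. These are matches of letters, and no factor binding was measured.

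Ywhah was read at 133.2, 112.1 and 121.0 CPM in LR1 to LR3, against 290.0, 250.2 and 303.7 CPM in NR1 to NR3. Every resistant tumour lay below every sensitive one, and the gap between the groups was wider than the range within either. The means were 122.1 ± 10.6 CPM in resistant and 281.3 ± 27.8 CPM in sensitive tumours (SD, n = 3 each), a log2 fold change of -1.20 ± 0.13 (SE), so that the resistant level was 43.4% of the sensitive one. This is the contrast that chose the gene and is given as a description. The raw counts behind it were 2241, 1878 and 2036 in the resistant and 4679, 4194 and 5316 in the sensitive tumours. With single tumours left out, the log2 fold change ran from -1.28 to -1.13, and it was -1.28 without NR2.

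In 3 of the marker and RNA-quality lists the summed levels did not overlap between the groups. Of all single genes tested, 15.95% did not overlap in either direction. T cell markers were lower in 12 of 12 tested members (10 at an unadjusted p under 0.05, 0 after adjustment in edgeR, 6 in DESeq2, where the shares over all genes are 52.7% lower, 9.76%, 0% and 0.872%), with a summed level of 13.3 to 39.5 CPM in the resistant and 39.8 to 552.6 CPM in the sensitive tumours. LR3, at 39.5 CPM, lay only just below NR3, at 39.8 CPM. Simple epithelial markers summed to 670.1 to 1117 CPM in the resistant and 456.9 to 649.1 CPM in the sensitive tumours, with 4 of 5 tested members higher. Krt8 and Krt18 made up most of that sum. Krt8 stood at 236.1 to 428.8 CPM in resistant and 144.4 to 191.0 CPM in sensitive tumours. Krt18 overlapped, at 423.0 CPM in LR3 and 440.9 CPM in NR3, and Cdh1 was highest in NR2, at 4.59 CPM. Within that list Cldn7 was at 0 in every tumour but NR2, where it was at 0.239 CPM, and Epcam was at 0 in LR1, LR3, NR1 and NR3. Ribosomal protein genes, a list of RNA quality, were higher in 27 of 27 members and summed to 10918 to 11987 CPM in resistant and 8297 to 10110 CPM in sensitive tumours. Nerve and Schwann cell markers summed to 145.4 to 185.9 CPM in resistant and 90.1 to 210.2 CPM in sensitive tumours, so that the groups overlapped. Mitochondrially encoded genes were lower in 13 of 13 and took 5.60% to 8.11% of the counts in resistant and 8.08% to 16.4% in sensitive tumours, with a slight overlap. In other lists the summed levels overlapped although most members were lower in resistant tumours. Endothelial markers were lower in 10 of 10, with sums of 189.4 to 295.1 CPM in resistant and 269.5 to 623.7 CPM in sensitive tumours. B and plasma cell markers were lower in 5 of 5 tested, with sums of 12.3 to 45.5 CPM in resistant and 34.7 to 5840 CPM in sensitive tumours. Adipocyte markers were lower in 9 of 9, with sums of 91.1 to 1512 CPM in resistant and 967.4 to 3648 CPM in sensitive tumours. Hepatocyte and liver tumour markers were lower in 9 of 11, with sums of 241.6 to 396.8 CPM in resistant and 369.1 to 472.2 CPM in sensitive tumours, and Alb was called by DESeq2 (adjusted p = 0.0020) but not by edgeR (adjusted p = 0.510). Skeletal muscle markers were lower in 11 of 11, with 1442 CPM in NR1. Their sums were 289.2, 97.7 and 5.47 CPM in LR1 to LR3, and 6.68 and 2.685 CPM in NR2 and NR3. LR1 and LR2 thus lay above NR2 and NR3, and NR1 alone held the high sensitive value. Erythroid markers went the other way, higher in 5 of 5 tested. Their sums were 30.85 to 104.0 CPM in resistant and 17.65 to 35.3 CPM in sensitive tumours. The part of these cells and of RNA quality in the Ywhah level was not tested.

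**Figure D1:**
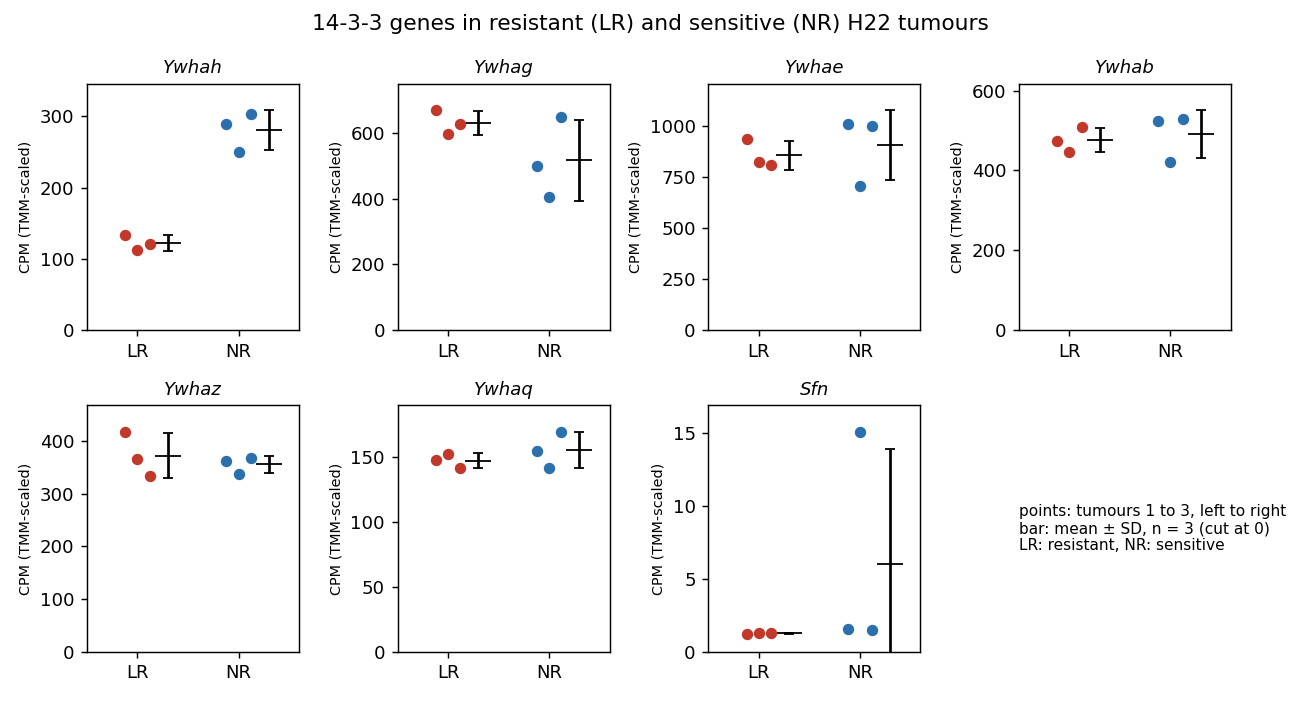
CPM of the 7 family genes in each tumour, on linear axes that start at 0 and differ between panels; points are tumours, and the bar is the mean ± SD of 3 tumours, cut at 0 for Sfn in the sensitive ones. The 3 resistant tumours lie at 112.1 to 133.2 CPM for Ywhah, below all 3 sensitive ones, while the groups overlap for the next 5 genes and 1 sensitive tumour, NR2, holds the high value of Sfn.

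Of the 6 other members none passed in edgeR's quasi-likelihood test at an adjusted p under 0.05, nor did any have an unadjusted p under 0.05, and DESeq2 called none of them. Over all 14392 genes tested, 0% were called by the quasi-likelihood test and 0.872% by DESeq2 (of genes with an adjusted p), and 9.76% had an unadjusted p under 0.05. Of the 6, 4 had a fitted log2 fold change below 0, which 52.7% of all genes had. All 7 members passed the filter on low counts.

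Ywhag, the member nearest to Ywhah in sequence, was read at 670.7, 596.3 and 627.8 CPM in LR1 to LR3, against 500.2, 404.2 and 648.3 CPM in NR1 to NR3. NR1 and NR2 lay below all resistant tumours, while NR3 lay above 2 of them. The log2 fold change was 0.29 ± 0.20 (SE), which did not pass (edgeR adjusted p = 0.598). It was 0.14 without NR2 and 0.49 without NR3, with adjusted p of 0.862 and 0.264 in edgeR.

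Ywhae, which encodes 14-3-3 epsilon, known from neuronal migration as a partner of NDEL1, was the most abundant member. It was read at 940.5, 826.4 and 808.3 CPM in LR1 to LR3, against 1012, 709.8 and 1004 CPM in NR1 to NR3. The resistant tumours lay inside the range of the sensitive ones, with a log2 fold change of -0.08 ± 0.19 (SE, edgeR adjusted p = 0.885). Ywhab, which encodes 14-3-3 beta, was read at 474.6, 446.2 and 507.9 CPM in LR1 to LR3, against 523.2, 420.8 and 528.4 CPM in NR1 to NR3. Here too the range of the resistant tumours fell within that of the sensitive ones, and the log2 fold change was -0.04 ± 0.15 (edgeR adjusted p = 0.921). Left out, NR1 turned both values above 0 (0.027 for Ywhab and 0.026 for Ywhae), and so did total counts alone for Ywhab (0.039), so the direction of both turned with the setting.

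Ywhaz, which encodes 14-3-3 zeta, a widely expressed member, was read at 417.8, 366.0 and 334.2 CPM in LR1 to LR3, against 361.7, 338.2 and 367.9 CPM in NR1 to NR3. LR1 was the highest and LR3 the lowest of the 6 tumours, so the groups overlapped fully, with a log2 fold change of 0.07 ± 0.13 (edgeR adjusted p = 0.865). Ywhaq, which encodes 14-3-3 theta, was read at 147.9, 152.8 and 141.4 CPM in LR1 to LR3, against 154.9, 142.1 and 169.7 CPM in NR1 to NR3. It varied least of the 7 within the groups, with a pooled within-group SD of 0.099 on the log2 CPM scale, which lay at percentile 4.02 of the genes tested, and its log2 fold change was -0.08 ± 0.11 (edgeR adjusted p = 0.800). Among the sensitive tumours NR2 had the lowest value of all 6 abundant members, Ywhah included, and the highest of Sfn. Ywhaz was at -0.021 without LR1, and Ywhaq at 0.0099 on log2(FPKM + 1), so their directions too turned with the setting.

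Sfn was the rare member, at 1.19, 1.25 and 1.31 CPM in LR1 to LR3, against 1.55, 15.1 and 1.49 CPM in NR1 to NR3. The raw counts were 20, 21 and 22 in the resistant and 25, 253 and 26 in the sensitive tumours, so that NR2 alone held the high value. Every resistant value lay below every sensitive one, as it did in 7.54% of all genes tested, but apart from NR2 the groups were within counting error: exact 95% Poisson intervals were 13.8 to 33.3 counts for LR3 and 16.2 to 36.9 counts for NR1. The log2 fold change was -2.27 ± 0.98 (SE, edgeR adjusted p = 0.512). Without NR2 it was -0.28 (edgeR adjusted p = 0.903), and limma-voom gave -1.37. On log2(FPKM + 1) it was -0.89 and on log2(FPKM + 0.1) -1.23.

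NR2 also had the highest summed keratinocyte, B cell and T cell marker levels. Keratinocyte markers summed to 65.3 CPM there and to between 2.40 and 6.39 CPM in the other 5 tumours. This sum was mostly Dsc3, a desmosomal cadherin, at 58.1 CPM in NR2 and at 0.119 CPM or less elsewhere, while Krt15 was at 0 in all tumours but LR3 and Krt14, a keratin of the basal epidermis, stood at 0.836 CPM or less in all 6. Only 7 of the 12 listed keratinocyte genes had a row in the table, and 2 were tested. Some other members were not highest in NR2. Krt10, a keratin of the upper epidermis, stood at 3.94 to 4.22 CPM in resistant tumours, against 2.29, 1.91 and 1.599 CPM in NR1 to NR3. Perp was highest in LR3, at only 0.357 CPM, and did not pass the filter on low counts. Trp63, a transcription factor of basal epithelia, was at 2.98 CPM in NR1 and close to that in NR2, at 2.86 CPM, and at most 1.25 CPM elsewhere. Col17a1, of the same list, was highest in NR2, at 2.15 CPM, and at most 0.416 CPM elsewhere. The simple epithelial list was lowest in NR2, at 456.9 CPM, with Krt18 at 282.9 CPM there, but Epcam, Cdh1 and Cldn7 were highest in that tumour. Cldn7 reached only 0.239 CPM there, near the level of 3 counts, and neither Cldn7 nor Epcam passed the filter on low counts. Epcam, an epithelial adhesion molecule, was at 3.82 CPM in NR2 and at 0.119 CPM or less elsewhere, and Cdh1, E-cadherin, at 4.59 CPM in NR2 and between 0.743 and 1.61 CPM elsewhere. B and plasma cell markers summed to 5840 CPM in NR2 and to at most 110.8 CPM in the others, and T cell markers to 552.6 CPM in NR2 and to at most 68.7 CPM in the others. The part of these cells in the Sfn level was not tested.

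**Figure D2:**
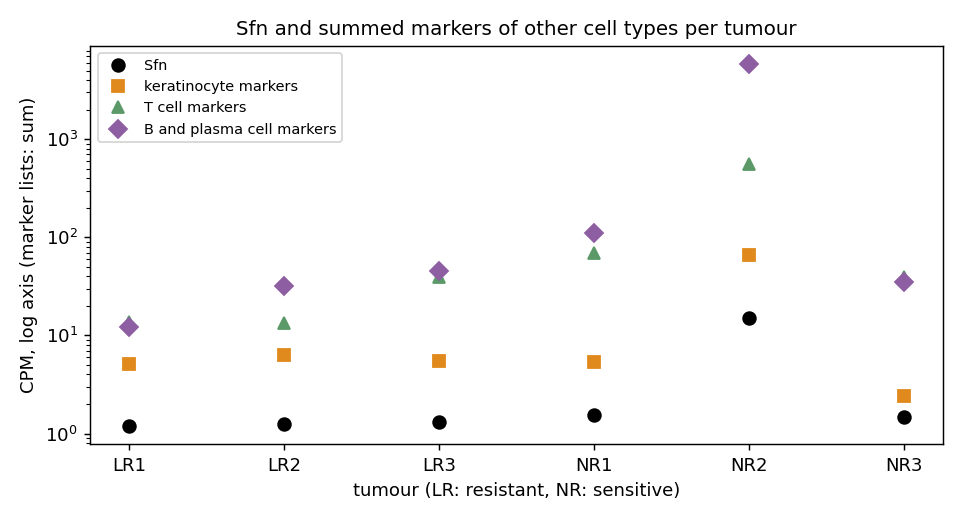
Sfn and the summed levels of 3 marker lists in each tumour, in CPM on a log axis, with resistant tumours on the left. NR2 is the highest of the 6 tumours in all 4 series, with Sfn at 15.1 CPM there.

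The levels of the members can be compared with each other only per length, for which the deposited FPKM values serve. In the resistant tumours the order was Ywhae (241.3 to 279.2 FPKM), Ywhab (130.8 to 155.5), Ywhag (70.9 to 81.1), Ywhaz (46.3 to 56.3), Ywhah (21.2 to 25.6), Ywhaq (21.03 to 21.8) and Sfn (0.755 to 0.853). In that order only Ywhah and Ywhaq overlapped. In the sensitive tumours Ywhae (201.7 to 293.1 FPKM), Ywhab (120.0 to 154.8) and Ywhag (46.8 to 77.0) again came first, then Ywhah (46.0 to 57.4), Ywhaz (43.6 to 48.8), Ywhaq (19.7 to 24.2) and Sfn (0.883 to 9.17). There Ywhag, Ywhah and Ywhaz overlapped one with the next. On this scale Ywhah thus overlapped with Ywhag and Ywhaz in sensitive tumours, and with Ywhaq in resistant ones.

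This order rests on gene lengths that the FPKM values imply, which were 5330 bases for Ywhah, 8470 for Ywhag and 7069 for Ywhaq, longer than the longest coding transcripts in GENCODE M21 (1764, 3520 and 2197 bases). Per kilobase of those transcripts, a setting added after the data were seen, Ywhag came before Ywhab in the resistant tumours, at 179.4 ± 10.6 CPM per kilobase, against 158.1 ± 10.3 CPM per kilobase for Ywhab (SD, n = 3). In the sensitive tumours Ywhah, at 159.5 ± 15.7 CPM per kilobase, came before Ywhag, at 147.0 ± 34.9, a gap within their spread. There it overlapped with Ywhab, with 141.9 to 172.1 CPM per kilobase for Ywhah and 139.6 to 175.4 for Ywhab, and no longer with Ywhaz, at 102.9 to 111.9. The length does not enter a comparison of the same gene between tumours.

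The family's total did not separate the groups. Its summed level was 605.8, 535.3 and 572.0 FPKM in LR1 to LR3, against 579.1, 486.9 and 656.3 FPKM in NR1 to NR3, and the resistant range lay inside the sensitive one. Within that total, Ywhah made up 4.78%, 4.48% and 4.76% of the family's counts in LR1 to LR3, against 10.2%, 10.97% and 10.04% in NR1 to NR3. Of the summed FPKM it made up 4.22%, 3.96% and 4.17% in LR1 to LR3, against 8.64%, 9.45% and 8.74% in NR1 to NR3. Ywhag made up 24.1%, 23.8% and 24.7% of the counts in LR1 to LR3, against 17.6%, 17.7% and 21.4% in NR1 to NR3. Neither gene's share of the counts overlapped between the groups, though shares sum to a whole, so that a smaller share of 1 member enlarges those of the others. Per 100 counts of Ywhab, Ywhae, Ywhaq and Ywhaz, Ywhag had 33.9, 33.3 and 35.0 in LR1 to LR3, against 24.4, 25.1 and 31.3 in NR1 to NR3. This ratio, which leaves Ywhah out, did not overlap between the groups either and was not tested. Shares of the family do not depend on how libraries are scaled.

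Counts of Ywhah per 100 counts of Ywhag were 19.9, 18.8 and 19.3 in LR1 to LR3, against 58.0, 61.9 and 46.8 in NR1 to NR3. The lowest sensitive value, in NR3, lay far above the highest resistant one. Added together, Ywhah and Ywhag took 28.9%, 28.3% and 29.5% of the family's counts in LR1 to LR3, against 27.8%, 28.7% and 31.5% in NR1 to NR3. In this sum the resistant tumours lay inside the range of the sensitive ones. These shares contain the gene that chose the family and were not tested.

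**Figure D3:**
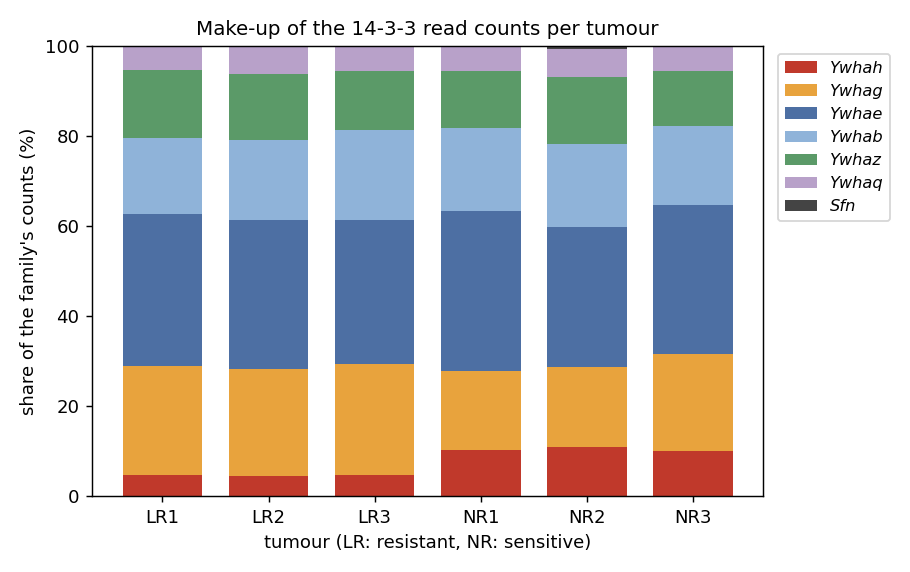
Share of each member in the summed counts of the 7 genes, in percent per tumour, with resistant tumours on the left. Ywhah at the base takes 4.48% to 4.78% in resistant and 10.04% to 10.97% in sensitive tumours, and the boundary above Ywhag lies between 27.8% and 31.5% in all 6.

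**Figure D4:**
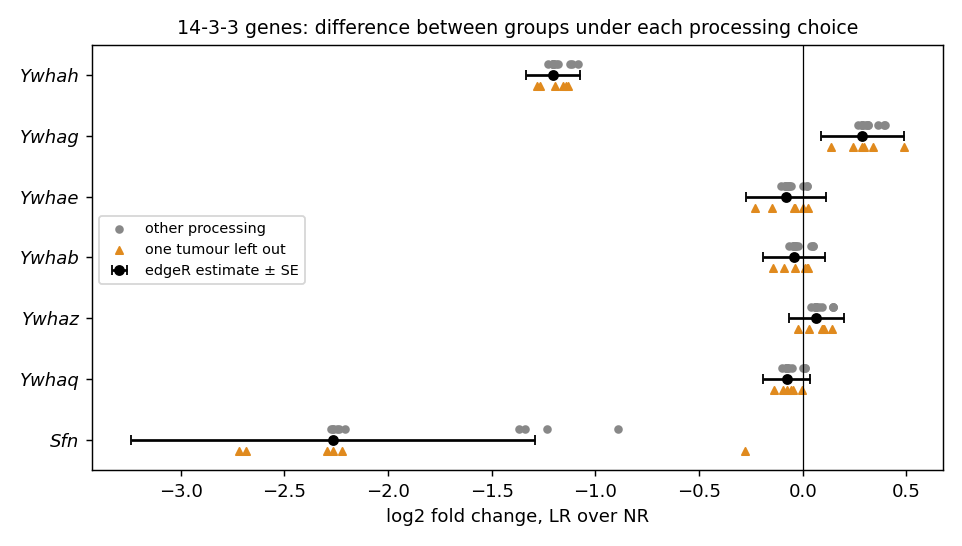
Log2 fold change of each member, resistant over sensitive, with its SE (black), under other processing choices (grey) and with each tumour left out (orange triangles). All values of Ywhah lie between -1.28 and -1.08, those of Ywhae, Ywhab, Ywhaz and Ywhaq lie on both sides of 0, and Sfn moves to -0.28 when NR2 is left out.

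No window of 50 bases in the longest coding transcript of a member was found in a transcript of another member, so reads of that length without mismatches separate the 7 genes. Transcripts of other genes hold 18.6% of these windows for Ywhah, 37.85% for Ywhaq, 19.88% for Ywhaz, 15.03% for Sfn and 0.35% for Ywhag, and none for Ywhab and Ywhae. Those matching Ywhah, Ywhaz and Sfn are processed pseudogenes. All windows of Ywhah that were shared matched Gm12428, which has no row in the table. Ywhaq shared 579 windows with a pseudogene named Gm11226 in the table, which had 344, 346 and 312 counts in LR1 to LR3 and 287, 252 and 354 counts in NR1 to NR3, and 386 with the coding gene Cdk5rap2, which had 1022, 1002 and 1203 counts in LR1 to LR3 and 997, 924 and 1181 counts in NR1 to NR3. How reads that match several genes were counted is not stated, so the levels of Ywhaq, Ywhaz, Ywhah and Sfn carry that uncertainty.

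The nearest tested protein-coding genes on either side of Ywhah did not pass the test. Depdc5, a subunit of the GATOR1 complex that restrains mTORC1 (chromosome 5, positions 32863701 to 32994236, plus strand), gave 31.3, 39.9 and 33.1 CPM in LR1 to LR3, against 29.9, 33.8 and 33.8 CPM in NR1 to NR3, with a log2 fold change of 0.10 ± 0.17 (SE, edgeR adjusted p = 0.833). Spon2, which encodes the matrix protein spondin 2 (chromosome 5, 33198184 to 33218455), was low, at 2.74 ± 2.20 CPM in resistant and 1.77 ± 0.20 CPM in sensitive tumours (SD, n = 3 each), and did not pass either (edgeR adjusted p = 0.709).

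The genes whose levels followed Ywhah most closely, by Pearson's r of log2 CPM over the 6 tumours, were Lcorl (r = 0.996), Carnmt1 (0.993), Pcmtd1 (0.992), Mup3 (0.992) and Runx2 (0.992). Pcmtd1, related to enzymes that repair damaged aspartate residues, was read at 15.2, 13.8 and 15.2 CPM in LR1 to LR3, against 28.9, 27.4 and 34.3 CPM in NR1 to NR3. Runx2, a transcription factor of bone formation, stood at 21.2 ± 1.87 CPM in resistant and 34.2 ± 1.36 CPM in sensitive tumours, and Lcorl, a transcription factor gene linked to body size, at 28.7 ± 1.38 CPM in resistant and 41.5 ± 2.63 CPM in sensitive tumours (SD, n = 3 each). Carnmt1, which methylates carnosine, stood at 19.3 ± 0.55 CPM in resistant and 26.9 ± 1.95 CPM in sensitive tumours. Mup3, at 5.69 ± 0.56 CPM in resistant and 9.32 ± 0.32 CPM in sensitive tumours, belongs to the major urinary proteins. Reads may be split among the related genes of that family, and the sequence that Mup3 shares with them was not examined. These genes share with Ywhah the division into groups that chose it, so the likeness is a description over 6 tumours. On log2(FPKM + 1), 3 of the 5 were again among the 5 most alike. The other family members had r between -0.48 (Ywhag) and 0.51 (Ywhaq) with Ywhah.

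Genes that work with 14-3-3 proteins were taken from 9 lists of known clients, of kinases and phosphatases that write or remove docking sites, and of p53 targets. Of their 113 tested genes, 51 were higher and 62 lower in resistant tumours (54.9% lower, where 52.7% of all genes were), with a median log2 fold change of -0.03, against -0.02 over all genes tested. None passed in edgeR's quasi-likelihood test or in DESeq2, and 16 had an unadjusted p under 0.05, where 9.76% of all genes had. In 14 genes all resistant values lay below all sensitive ones and in 6 above, where the shares over all genes are 7.54% and 8.41%. Without NR2, a setting added after the data were seen, 52 were higher and 61 lower, where 51.2% of all genes were lower.

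RAF kinases and their partners, the clients through which 14-3-3 proteins hold the MAPK pathway in check or active, were higher in 9 and lower in 7 of 16 tested genes, with a median log2 fold change of 0.01. Map2k1, which encodes the kinase MEK1, stood at 118.3 ± 11.7 CPM in resistant and 101.6 ± 6.30 CPM in sensitive tumours (SD, n = 3 each), with overlap and not past the threshold (edgeR adjusted p = 0.541). Ksr1, a scaffold of this pathway, stood at 5.02 ± 2.90 CPM in resistant and 12.97 ± 13.2 CPM in sensitive tumours, with 28.04 CPM in NR2.

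Clients of the cell cycle and p53 were higher in 5 and lower in 3 of 8 genes (median log2 fold change 0.07). Wee1, a kinase that delays entry into mitosis, stood at 69.4, 59.0 and 43.8 CPM in LR1 to LR3, against 34.6, 33.9 and 37.9 CPM in NR1 to NR3, a log2 fold change of 0.69 ± 0.20 (edgeR adjusted p = 0.510). Its resistant values all lay above the sensitive ones. Trp53, the gene of p53, stood at 53.4 ± 3.33 CPM in resistant and 64.9 ± 11.4 CPM in sensitive tumours without overlap (edgeR adjusted p = 0.541). The gap was narrow, with LR2 at 56.7 CPM and NR3 at 57.3 CPM, and NR2 was highest, at 78.0 CPM. Cdc25b, a phosphatase that opens mitosis, stood at 76.5 ± 7.34 CPM in resistant and 65.0 ± 7.87 CPM in sensitive tumours (SD, n = 3 each).

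Clients of cell death were higher in 3 and lower in 3 of 6 genes (median 0.11). Bad, a death promoter that 14-3-3 proteins hold in the cytosol, stood at 12.7, 11.6 and 12.1 CPM in LR1 to LR3, against 7.996, 6.62 and 8.63 CPM in NR1 to NR3. The groups did not overlap, with a log2 fold change of 0.64 ± 0.23 (edgeR adjusted p = 0.510). Bax, a pore-forming death protein, also lay higher in every resistant tumour, at 47.6 ± 4.41 CPM, against 37.0 ± 2.62 CPM in sensitive tumours, and Map3k5, the stress kinase ASK1, stood at 17.98 ± 2.65 CPM in resistant and 28.8 ± 10.9 CPM in sensitive tumours (SD, n = 3 each).

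Transcription factors and cofactors that 14-3-3 proteins keep in the cytosol were higher in 8 and lower in 9 of 17 genes (median -0.06). Crtc2, a coactivator of CREB, stood at 82.4, 78.0 and 66.3 CPM in LR1 to LR3, against 101.8, 96.7 and 92.9 CPM in NR1 to NR3, a log2 fold change of -0.36 ± 0.13 (edgeR adjusted p = 0.510). Its resistant values all lay below the sensitive ones. Foxo1 stood at 27.1 to 32.2 CPM in resistant tumours and at 37.8, 93.7 and 38.2 CPM in NR1 to NR3, and Hdac9, a class IIa histone deacetylase, at 2.62 to 4.24 CPM in resistant tumours and at 5.95, 18.3 and 4.46 CPM in NR1 to NR3. In both the high sensitive value was that of NR2, and the part of that tumour's lymphocyte RNA in these levels was not tested.

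Clients of insulin and mTOR signalling were higher in 4 and lower in 6 of 10 genes (median -0.06). Akt1s1, the mTORC1 inhibitor PRAS40, stood at 42.2 ± 8.70 CPM in resistant and 28.6 ± 2.91 CPM in sensitive tumours, Tsc2, a brake on mTORC1, at 49.5 ± 4.08 CPM in resistant and 60.1 ± 4.65 CPM in sensitive tumours, and Irs1, an adaptor of the insulin receptor, at 13.3 ± 2.12 CPM in resistant and 18.4 ± 6.41 CPM in sensitive tumours (SD, n = 3 each). The groups did not overlap for Akt1s1 and Tsc2, and edgeR's adjusted p were 0.510, 0.520 and 0.589. Clients of the cytoskeleton were higher in 4 and lower in 3 of 7 genes (median 0.10), and without NR2 higher in 6 and lower in 1. Among them Ndel1, the dynein regulator that 14-3-3 epsilon binds, stood at 83.1 ± 8.83 CPM in resistant and 62.7 ± 1.25 CPM in sensitive tumours without overlap. Krt18, a simple epithelial keratin, stood at 582.3 ± 138.0 CPM in resistant and 353.2 ± 80.4 CPM in sensitive tumours, and Tiam1, an exchange factor of RAC1, at 46.7 ± 8.95 CPM in resistant and 33.9 ± 10.96 CPM in sensitive tumours.

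Kinases that write docking sites were higher in 6 and lower in 19 of 25 genes, with a median log2 fold change of -0.13. Without NR2, 8 were higher and 17 lower. Sgk1, a kinase close to AKT that glucocorticoids induce, stood at 156.5, 175.3 and 103.6 CPM in LR1 to LR3, against 86.8, 78.8 and 90.8 CPM in NR1 to NR3. All resistant values lay above the sensitive ones, with a log2 fold change of 0.76 ± 0.21 (edgeR adjusted p = 0.510). Akt2 stood at 64.9 ± 5.97 CPM in resistant and 84.4 ± 7.97 CPM in sensitive tumours, and Sik2, a salt-inducible kinase that phosphorylates CREB coactivators, at 58.4 ± 0.98 CPM in resistant and 74.2 ± 8.72 CPM in sensitive tumours (SD, n = 3 each), both without overlap and neither past the threshold (edgeR adjusted p = 0.510).

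PP2A subunits were higher in 6 and lower in 5 of 11 genes (median 0.08). Ppp2r5a, a regulatory subunit, stood at 113.7, 126.2 and 109.0 CPM in LR1 to LR3, against 177.0, 223.6 and 134.6 CPM in NR1 to NR3, a log2 fold change of -0.62 ± 0.20 (edgeR adjusted p = 0.510). Ppp2r5c, another regulatory subunit, stood at 148.1 ± 0.56 CPM in resistant and 160.8 ± 6.83 CPM in sensitive tumours and Ppp2cb, a catalytic subunit, at 101.6 ± 12.6 CPM in resistant and 91.1 ± 7.21 CPM in sensitive tumours (SD, n = 3 each).

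Targets of p53, the group to which Sfn belongs, were higher in 6 and lower in 7 of 13 genes (median -0.06). Ccng1, the gene of cyclin G1, stood at 71.2, 90.6 and 69.1 CPM in LR1 to LR3, against 111.4, 143.4 and 96.5 CPM in NR1 to NR3, and Mdm2, the ubiquitin ligase of p53, at 64.3 ± 7.995 CPM in resistant and 82.2 ± 5.82 CPM in sensitive tumours. Both lay lower in every resistant tumour without passing (edgeR adjusted p = 0.510). Cdkn1a, the cell cycle inhibitor p21 that is the best known of these targets, stood at 68.3 ± 13.5 CPM in resistant and 54.4 ± 12.5 CPM in sensitive tumours (SD, n = 3 each), with overlap, and was added after its values were seen. Trp53inp1, like Sfn, was high in NR2 alone, at 208.5 CPM there and at most 14.7 CPM in each of the others.

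**Figure D5:**
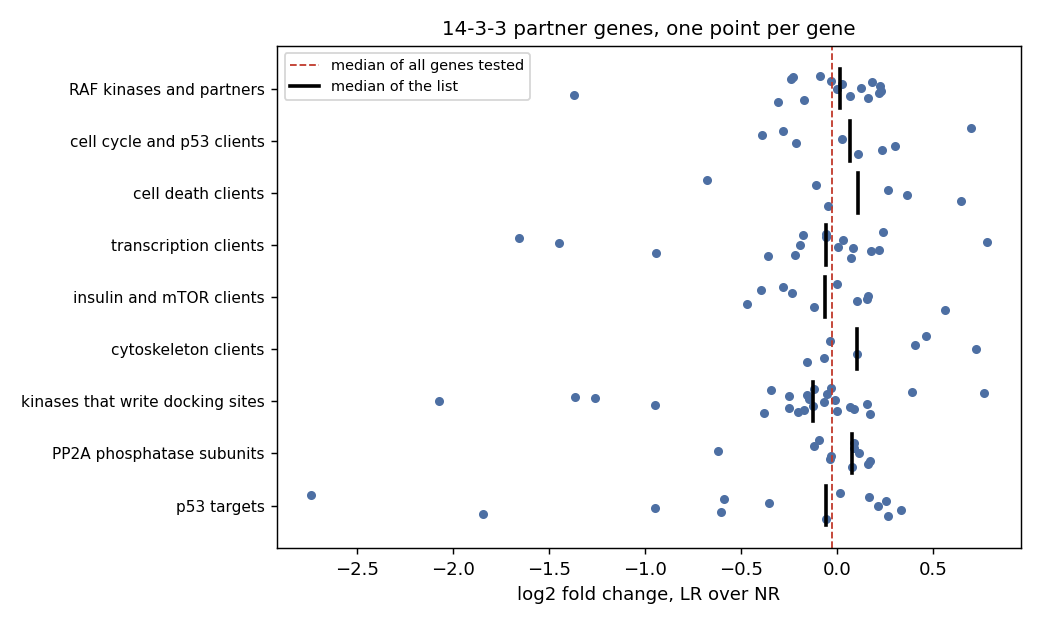
Log2 fold change, resistant over sensitive, of each tested gene in the 9 lists of 14-3-3 partners (points), with the list's median (black line) and the median of all genes tested (red dashed line). The list medians lie between -0.13 and 0.11, close to that of all genes at -0.02.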

How the data were processed

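RNA from 3 resistant and 3 sensitive tumours was isolated with TRIzol and prepared for sequencing with a VAHTS V6 kit from Vazyme, per the labels' protocols. HISAT2, StringTie and edgeR appear in the submitters' processing notes, but no version or role is given there. For genome build, annotation and strand setting, the sources used here give nothing. The authors deposited 1 table of whole-number read counts per gene, not normalized, and 1 table of FPKM, scaled to gene length and library size, per the file headers. Of the identifiers, 20355 (99.4%) were found in GENCODE M21 (GRCm38).

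From the counts, edgeR 4.0.16 in R 4.3.3 was run on all 6 tumours (filterByExpr, TMM, quasi-likelihood F-test, no block, Benjamini-Hochberg adjustment over 14392 genes), and checked on simulated data. Fold changes are resistant over sensitive, and each SE is the fold change divided by the root of F. Per the series design, tumours within a group are biological replicates. Symbols turned into dates were restored by identifier, and a symbol on more than 1 row was left out of the lists. Alternatives were DESeq2 1.42.0, edgeR's exact test, limma-voom (limma 3.58.1), RLE and total-count scaling, other filters, a replicate block, FPKM, and leaving out each tumour. Intervals cover counting error only.

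The members and gene lists were chosen with earlier results of these data known. Named genes were all members, up to 3 per partner list with the smallest p and a mean log2 CPM of at least 1, the 5 most like Ywhah, and its nearest tested neighbours. Some genes that this rule names are not reported here. Promoters come from RefSeq (GRCm38.p6, 5 of the 7 members matched).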

Additional observations from a re-analysis of the deposited data

How the results depend on the processing

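Ywhah kept its direction under all 17 alternatives, with log2 fold changes from -1.28 to -1.08, the smallest in size on log2(FPKM + 1). Ywhag, from 0.14 to 0.49, and Sfn, from -2.72 to -0.28 in 16 alternatives, also kept theirs. Sfn has no value under the filter of 50 counts. The groups of Ywhah and of Sfn do not overlap, so leaving out a tumour could hardly turn their direction. No alternative with a test called any of the 6 members other than Ywhah. Ywhah was among the genes fitted, but no test result is given for it because this contrast chose it. The values of 4 members near 0 changed sign. Ywhab was at 0.039 with total counts alone and at 0.048 on log2(FPKM + 1) and log2(FPKM + 0.1), where Ywhae was at 0.019 on both and Ywhaq at 0.0099 and 0.0105. With single tumours left out, Ywhab ran from -0.14 to 0.027, Ywhae from -0.23 to 0.026 (above 0 without NR1 and without NR3) and Ywhaz from -0.021 to 0.14. Each value that changed sign was smaller in size than the SE of that gene, and the cause was not tested.

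Over all genes, edgeR's quasi-likelihood test called 0 genes, DESeq2 117 and edgeR's exact test 42. The 1404 genes at an unadjusted p under 0.05 became 631 to 2666 with single tumours left out. The count was 631 without LR1, 920 without LR2, 834 without LR3, 1134 without NR1, 934 without NR2 and 2666 without NR3. Deviations of tumours with the same number correlated at 0.054, 0.31 and -0.16, and 2 of 6 tumours correlated best with their own number. These values do not show that the numbers pair the tumours. With 3 tumours per group they cannot exclude it either. With the replicate block the count was 1120 and Sfn was at -1.34. The medians of the 9 partner lists ran from -0.29 to 0.26, and those of the kinase, cell cycle and cytoskeleton lists kept their sign in all 15 alternatives. Without NR2 the median of the RAF list was -0.025 and that of the PP2A list -0.068. At 20 to 26 counts, Sfn is too shallow outside NR2 to show a difference of the size of its counting error.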
